A study of Mus musculus with 6 samples.

Results

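Clathrin-mediated endocytosis was described through 45 genes that encode its coat, adaptors, scaffolds, membrane-bending and scission proteins, lipid enzymes, uncoating factors and first endosomal sorting proteins. They were chosen by name as a functional module, and all 45 were found by symbol among the 15973 genes in the authors' protein-coding comparison. RNA was sequenced from 4T1-T cells, which were cloned from 4T1, a mouse line of mammary carcinoma, and are proficient in VM (vasculogenic mimicry, the lining of channels by tumor cells). All cells were starved of serum overnight in Opti-Mem with BSA, fed fluorescent acLDL (acetylated low-density lipoprotein coupled to Alexa-488, 10 ug/mL) for 4 h, washed, returned to complete medium for 1 h and sorted. The acLDL-high population is the brightest 25% and the acLDL-low population the dimmest 25%, with 3 libraries each. No genotype or drug differed between them, both had received the lipoprotein, and unsorted or unfed cells are not analysed here. The series' design text says that the experiment was repeated on separate occasions, and the replicate number in the labels, 1 to 3, is taken here as the occasion. A single clone was used, and the replicate number is a block in the fit. The p-values between populations therefore concern the difference within a replicate over these occasions. The fit also moderates each gene's variance with that of other genes, so these p-values do not measure a gene's own spread alone.

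In clathrin-mediated endocytosis, the AP2 adaptor complex is recruited to the plasma membrane by phosphatidylinositol 4,5-bisphosphate and by cargo, and clathrin triskelia assemble on it into a curved lattice. Scaffold proteins organise the young pit, cargo adaptors select receptors, dynamin cuts the neck of the bud, and phosphatases with the auxilin family strip the coat so that the vesicle can fuse with early endosomes. The route is best known for the uptake of transferrin and other ligands by their receptors. Modified lipoprotein such as acLDL is bound by scavenger receptors, several of which are internalised through clathrin-coated pits.

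Library totals ran from 70263372 to 94216786 counts, and the smallest count of any of the 45 genes in a library was 636. Levels are given in CPM (counts scaled to a common library size after TMM scaling), and levels of different genes are compared only in CPM per kilobase of annotated exon. All 45 genes passed the low-count filter. Mean levels ran from 14.0 CPM for Arrb1 to 659.9 CPM for Cltc. Over all genes tested, 3.43% rose with acLDL uptake and 1.32% fell, by the test given below. Of 10 epithelial markers, all were tested and 4 rose with acLDL uptake (Cldn4, Cldn7, Esrp1 and Ocln). Among the macrophage markers 1 of 6 tested rose (Cd14), and 5 of 16 had 0 counts in every library (Adgre1, C1qa, C1qb, C1qc and Tyrobp). Their summed level ran from 19.3 to 22.0 CPM in low and 20.2 to 24.5 CPM in high libraries. Of 12 endothelial markers 6 were tested, none passed and 3 had 0 counts throughout. The endothelial sum was 86.8 to 141 CPM in low and 82.1 to 159 CPM in high libraries, most of it Flt1 (means 110 and 122 CPM). Of 10 fibroblast markers 4 were tested, 1 rose (Postn) and 3 had 0 counts. The fibroblast sum was 30.4 to 42.3 CPM in low and 33.1 to 44.7 CPM in high libraries, most of it Pdgfra (means 34.9 and 37.1 CPM). The part of other cell types in the members' values was not tested.

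None of the 45 genes passed the test between acLDL-high and acLDL-low cells (0 of 45 with an edgeR quasi-likelihood adjusted p under 0.05 and the replicate number as a block), where 4.75% of the 12572 genes tested did (3.43% higher and 1.32% lower in acLDL-high cells). At an unadjusted p under 0.05 there were 3 members (6.67%), Dab2, Epn1 and Stam, against 19.4% of all genes. DESeq2 with the same block also called 0 members, with 2 at an unadjusted p under 0.05. Without the block edgeR called 0 of all genes, with 45 of them and 0 members at an unadjusted p under 0.05. The share of all genes called was 5.25% without replicate 1, 6.96% without replicate 2 and 1.01% without replicate 3, where members called numbered 0, 1 (Dab2) and 0. The members' log2 fold changes lay between -0.11 for Epn1 and 0.13 for Dab2, with a median of -0.012 beside 0.0017 over all genes. Of the members, 17 were above 0 (37.8%, beside 50.6% of all genes) and 28 below. By pair, 60%, 31.1% and 42.2% of members were higher in the acLDL-high library of replicates 1, 2 and 3, beside 54.8%, 47.4% and 49.8% of all genes. The same direction in all 3 pairs was seen for 16 members (35.6%), 7 higher and 9 lower, beside 40.4% of all genes (20.9% higher and 19.5% lower). The CPM ranges of the populations overlapped for all 45, whereas they did not for 2.86% of all genes.

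With the block and variances moderated across genes, the intervals around these differences were narrow. Without the block the standard errors of the members' log2 fold changes ran from 0.089 for Hgs to 0.69 for Dnm1. With it, a member's standard error had a median of 0.043. The 95% intervals, which are not adjusted for the number of genes, together spanned -0.22 to 0.23. On the linear scale, that is 0.857-fold to 1.18-fold. For 40 of the 45 the interval lay within 0.2 of 0. The smallest absolute log2 fold change that was called in any gene was 0.15, larger than that of every member. These intervals are of mRNA, and neither protein amounts nor the activity of the pits were measured. In bulk RNA, fewer cells expressing a gene and less RNA per cell cannot be told apart.

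**Figure D1:**
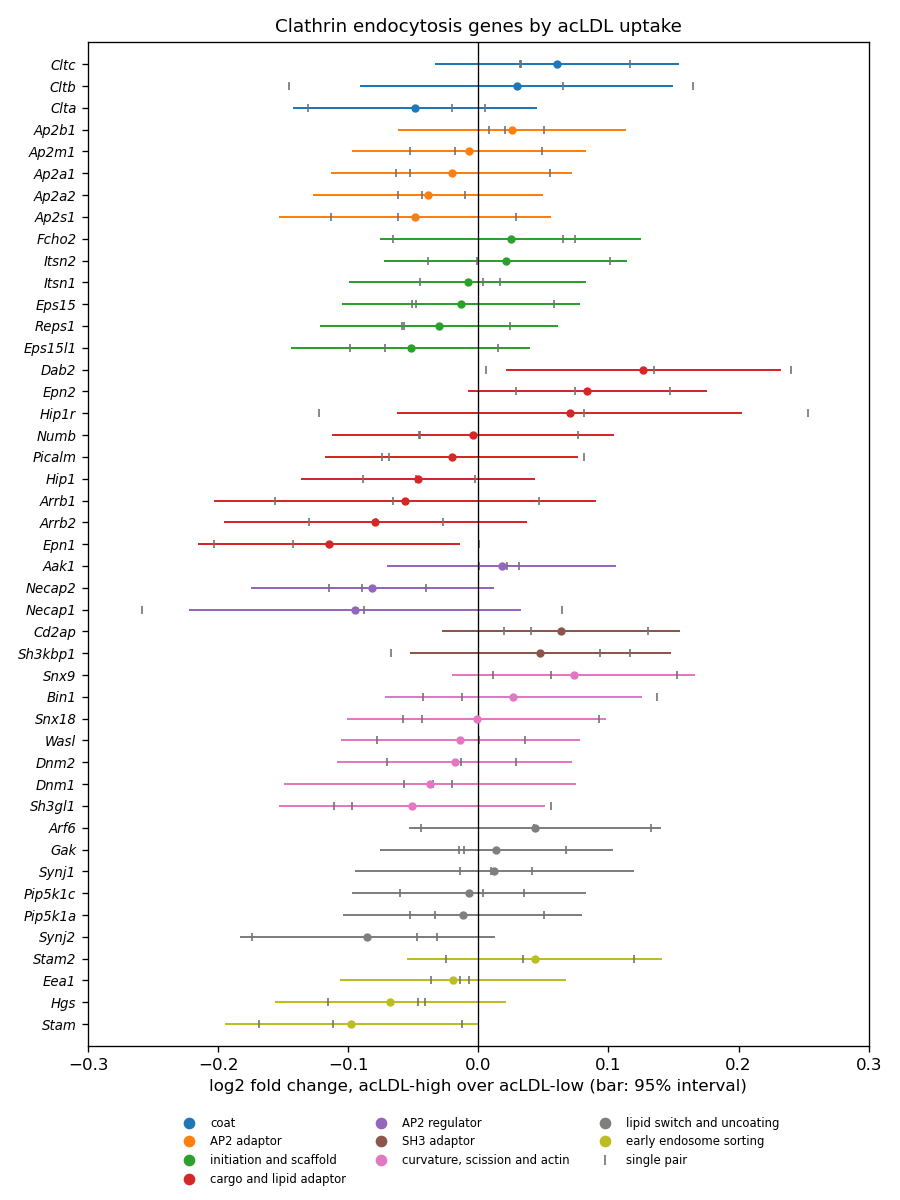
The log2 fold change of each of the 45 genes between acLDL-high and acLDL-low cells on the horizontal axis, with its 95% interval as a bar, the 3 single pairs as ticks and colour by role. All points lie between -0.11 and 0.13, and the intervals of all but Dab2, Epn1 and Stam include 0.

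Most members differed between the occasions. With the population in the model, 36 of 45 members differed between the 3 occasions (80% of members; edgeR F test on the replicate number, adjusted p under 0.05), where 78% of all genes did. An occasion holds only a low and a high library. The p-values over occasions therefore do not measure the spread between repeat cultures of an occasion. The range over occasions (highest minus lowest occasion mean, in log2 CPM) had a median of 0.32 for the members and 0.45 for all genes. It exceeded the absolute log2 fold change between populations for 44 of 45 members, the exception being Hgs. The share over all genes was not counted, but their median absolute log2 fold change, 0.073, was also below their median range. A range of 3 means grows with noise, so it is not a like measure to a mean difference. Occasion 2 gave the highest mean for 27 of 45 members (60%) beside 39.8% of all genes, and the count of members was 27 under DESeq2's size factors too. What differed between the occasions (culture, day, library preparation) cannot be told apart.

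**Figure D2:**
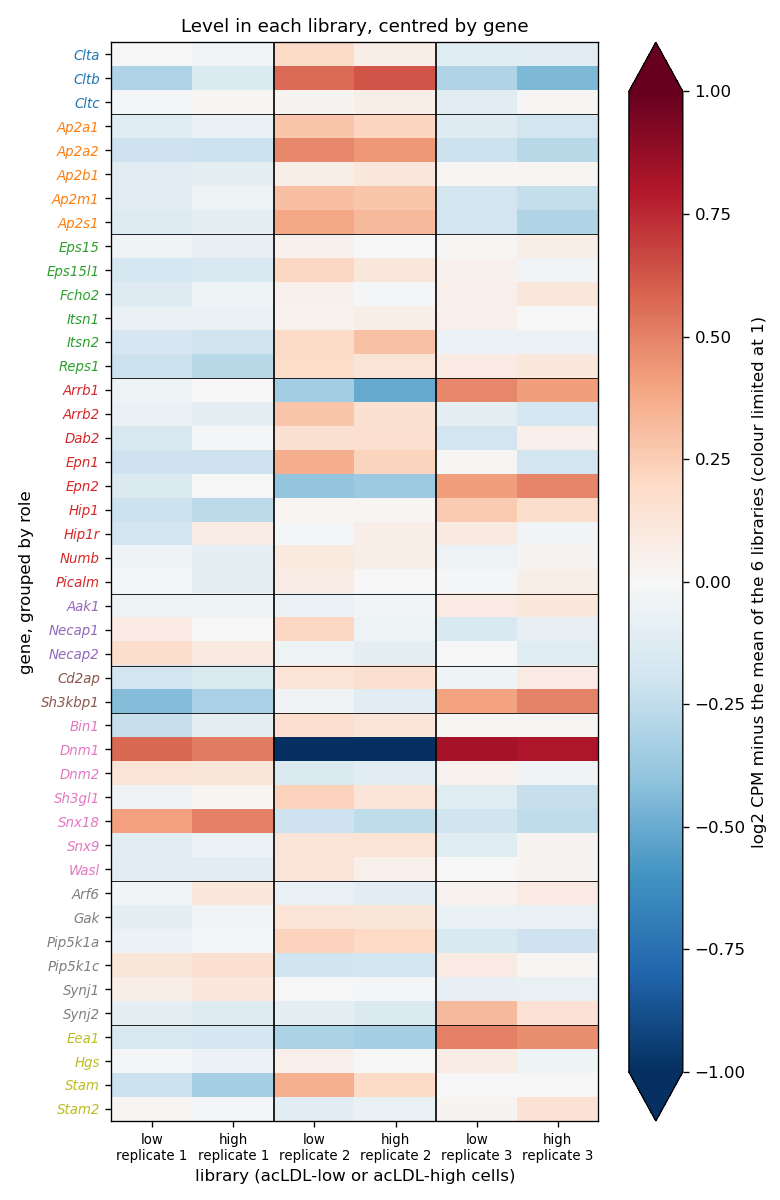
Each row is a gene, grouped by role, and each column a library, ordered by replicate with acLDL-low before acLDL-high. Colour gives log2 CPM minus the gene's mean over the 6 libraries. Neighbouring columns of a replicate resemble each other, and the darkest cells are those of Dnm1 in replicate 2, at 9.06 and 8.84 CPM.

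The clathrin coat is built from the heavy chain Cltc and the light chains Clta and Cltb, which bind the heavy chain's leg and regulate assembly. Cltc (chromosome 11, 86694351 to 86757565, GRCm38) was at 638, 659.8 and 602 CPM in replicates 1, 2 and 3 of the dim population and 652, 675 and 653 CPM in the bright one. The high library was above its low partner in all 3 pairs, by 0.032, 0.032 and 0.12 on the log2 scale, but the populations overlapped, and the log2 fold change of 0.060 (SE 0.043, 95% interval -0.033 to 0.15) gave an edgeR adjusted p of 0.489. Clta (chromosome 4, 44004452 to 44032846) was at 198, 228 and 183 CPM against 196, 208 and 184 CPM in high cells, a log2 fold change of -0.049 (adjusted p = 0.590 from edgeR). Cltb (chromosome 13, 54592401 to 54611344) stood at 48.9, 89.6 and 49.0 CPM in low and 54.8, 93.7 and 44.3 CPM in high cells, with 0.029 on the log2 scale and pairs of both signs (0.17, 0.065 and -0.15; adjusted p = 0.831).

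The light chains also varied between occasions. Cltb in replicate 2 was above every other library in both populations, 0.90 higher on the log2 scale than the mean of occasions 1 and 3 (edgeR adjusted p over occasions = 7.59e-08). For Clta the same difference was 0.19 (adjusted p = 0.00313), and for Cltc 0.070, which did not pass (0.299). Per kilobase of exon, Clta was at 111, Cltc at 76.1 and Cltb at 13.0 CPM, so Clta made up between 85.7% and 91.8% of the summed light chain level in a library. That share was 90.0% ± 2.35 in low and 89.4% ± 3.23 in high cells (SD, n = 3).

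AP2 is the 4-subunit adaptor that links clathrin to the membrane. Its large subunits are alpha (Ap2a1 or Ap2a2) and beta (Ap2b1), its medium subunit mu (Ap2m1) reads tyrosine-based sorting signals, and the small sigma subunit (Ap2s1) contributes to dileucine binding. The 5 genes that encode it were each highest in occasion 2 (beside 39.8% of all genes and 60% of members), in both populations. Each differed between occasions (5 of 5, beside 78% of all genes). The 3 clathrin chains were also each highest in occasion 2 in both populations, so this is not particular to AP2. Because the AP2 genes shared the highest occasion, the 250 bases before the RefSeq starts of Ap2a1, Ap2a2 and Ap2m1 are shown. Those of Dnm1, which was lowest in occasion 2, are shown with them. Of the windows shown, the last 6 bases for Ap2a1, 7 for Ap2a2, 2 for Ap2m1 and 9 for Dnm1 lie within the GENCODE gene. The window of Ap2s1 reaches 34 bases into its gene, and that of Ap2b1 lies wholly inside its gene, since the RefSeq start is 3673 bases past the GENCODE start. These are described without their letters because more of them is annotated as untranslated exon. Capitals mark matches, on either strand, to the GC box (GGGCGG), the box known as CCAAT, the TATA box (with its letters TATAAA), the E-box (here CACGTG), the ETS core (here CCGGAAG) or the CRE (here TGACGTCA). The sequences are from RefSeq on GRCm38.p6, 5′ to 3′ along the gene.
Ap2a1, chr7:44929491-44929740 (minus strand): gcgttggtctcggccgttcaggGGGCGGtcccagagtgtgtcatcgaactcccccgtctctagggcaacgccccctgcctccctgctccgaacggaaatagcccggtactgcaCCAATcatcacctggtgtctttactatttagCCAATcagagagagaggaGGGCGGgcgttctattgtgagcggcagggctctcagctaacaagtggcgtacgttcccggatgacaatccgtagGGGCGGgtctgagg
Ap2a2, chr7:141561930-141562179 (plus strand): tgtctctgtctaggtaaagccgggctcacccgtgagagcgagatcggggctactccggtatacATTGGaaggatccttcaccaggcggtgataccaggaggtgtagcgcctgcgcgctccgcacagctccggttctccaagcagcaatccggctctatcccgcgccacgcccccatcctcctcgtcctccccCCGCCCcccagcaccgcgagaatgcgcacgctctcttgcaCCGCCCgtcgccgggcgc
Ap2m1, chr16:20535230-20535479 (plus strand): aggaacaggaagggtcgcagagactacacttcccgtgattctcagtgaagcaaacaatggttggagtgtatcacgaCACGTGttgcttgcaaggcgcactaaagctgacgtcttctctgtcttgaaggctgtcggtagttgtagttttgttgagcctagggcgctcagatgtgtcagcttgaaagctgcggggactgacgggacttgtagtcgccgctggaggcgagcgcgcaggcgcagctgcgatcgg
Dnm1, chr2:32353330-32353579 (minus strand): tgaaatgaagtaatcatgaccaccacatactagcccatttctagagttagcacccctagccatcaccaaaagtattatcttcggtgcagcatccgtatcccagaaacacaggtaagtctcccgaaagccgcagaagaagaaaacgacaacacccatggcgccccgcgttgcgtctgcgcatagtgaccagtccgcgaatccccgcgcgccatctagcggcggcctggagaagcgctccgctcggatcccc
Ap2a1 and Ap2a2 hold GC boxes and CCAAT, Ap2b1 a CRE and an ETS core, Ap2m1 an E-box and Ap2s1 an ETS core, so no motif searched is in all 5, and the Dnm1 window holds none of the 6. Over the 38 members with a RefSeq promoter, 23 (60.5%) held a GC box beside 59.9% of 9851 genes tested, and 12 (31.6%) CCAAT beside 37% of them. An E-box was in 7 (18.4%) beside 8.26%, an ETS core in 6 (15.8%) beside 14.2%, a CRE in 2 (5.26%) beside 2.84% and TATAAA in 1 (2.63%) beside 6.42%. The E-box and the CRE read the same on both strands, and none of the 6 motifs contains another. Arf6, Arrb1, Arrb2, Bin1, Necap2, Reps1 and Snx9 had no entry. The RefSeq starts used for Eps15 and Synj2 lie 62788 and 34300 bases past the GENCODE starts. Their windows are therefore inside the genes, and that of Eps15 is counted among those with CCAAT. The window of Ap2b1, also inside its gene, is counted for the CRE and the ETS core. The Itsn2 start lies 370 bases past the GENCODE start, so its window, counted for the GC box, is inside the gene too. These matches describe the letters in the window and are not evidence of binding.

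Ap2a1 (chromosome 7, 44900373 to 44929496, with 720 bases of its exons also in Fuz on the other strand) was at 109, 144 and 108 CPM in the acLDL-low libraries and 113, 138 and 104 CPM in the acLDL-high libraries. Ap2a2 (chromosome 7, 141562173 to 141633011) read 83.2, 134 and 83.0 CPM in low and 82.6, 129.8 and 79.5 CPM in high cells. In both alpha subunits replicate 2 stood above the other replicates, by 0.37 and 0.68 on the log2 scale, while the log2 fold changes between populations were -0.020 and -0.039 (edgeR adjusted p = 0.848 and 0.662). Per kilobase, Ap2a1 held 58.2% to 64.4% of the summed alpha level. Ap2b1 (chromosome 11, 83299024 to 83405035) was the AP2 gene whose occasions were closest together, at 210.1, 236 and 228 CPM in low and 213, 245 and 229 CPM in high cells. It was the only AP2 gene above 0 between populations, with a log2 fold change of 0.026 (95% interval -0.062 to 0.11; adjusted p = 0.788), higher in 3 of 3 pairs. Ap2m1 (chromosome 16, 20535478 to 20544909) gave 140.2, 185 and 132 CPM against 145, 183 and 128 CPM, a log2 fold change of -0.0073 (adjusted p = 0.948). Ap2s1 (chromosome 7, 16738410 to 16749294) gave 37.9, 54.2 and 36.3 CPM against 38.6, 51.9 and 33.6 CPM, with -0.049 on the log2 scale (adjusted p = 0.633). For both, the libraries of replicate 2 were the highest and those of replicate 3 the lowest, with adjusted p over occasions of 3.54e-06 and 2.05e-06.

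The summed level of the 5 AP2 genes was 580.5, 753 and 588 CPM in replicates 1, 2 and 3 of the acLDL-low population, and in the acLDL-high population it was 593, 747 and 574 CPM. Replicate 2 was the highest in each population, and the populations overlapped. Of the 14 tested subunits of AP1 and AP3, the related adaptors of the trans-Golgi network and endosomes, 5 were highest in occasion 2 (35.7%), near the 39.8% of all genes. None of the 14 passed the test between populations, beside 4.75% of all genes.

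**Figure D3:**
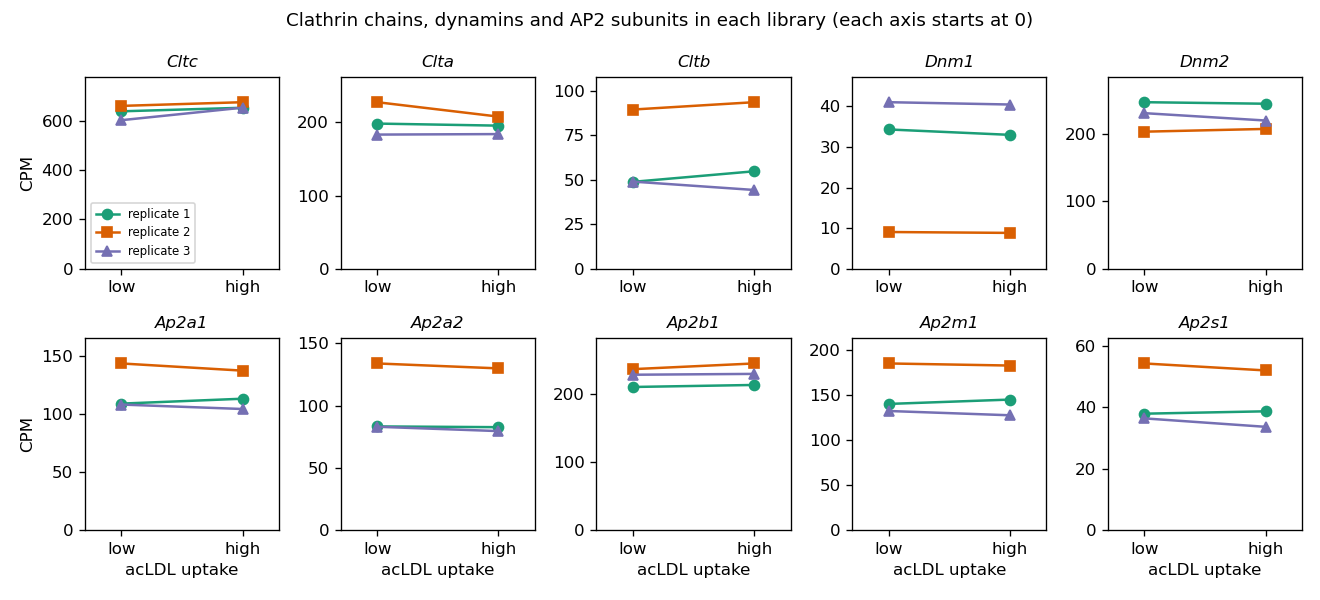
CPM of the clathrin chains, the dynamins and the AP2 subunits in acLDL-low and acLDL-high cells, with a line joining the libraries of a replicate and each vertical axis starting at 0. The lines are close to flat. Replicate 2 lies above the others for the AP2 genes and the clathrin chains, by little for Cltc, and below them for Dnm1 and Dnm2.

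The AP2 regulators gave differences of similar size. Necap1, which binds the AP2 appendages, was at 41.3, 45.1 and 35.2 CPM in low and 38.9, 37.7 and 36.8 CPM in high cells, with pairs of -0.088, -0.26 and 0.064 and a log2 fold change of -0.095 (95% interval -0.22 to 0.033; edgeR adjusted p = 0.416). Pair 2 was the lowest of the 3 and pair 3 had the opposite sign. Its paralogue Necap2 had -0.082 and was lower in 3 of 3 pairs (adjusted p = 0.330). Aak1, the kinase that phosphorylates the mu subunit, had 0.018 (95% interval -0.070 to 0.11; adjusted p = 0.863).

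Pit initiation and scaffolding were covered by 6 genes. Fcho2 bends the membrane at nascent pits, Eps15 and Eps15l1 bind AP2 and ubiquitinated cargo, Itsn1 and Itsn2 are intersectin scaffolds that bring in dynamin and actin regulators, and Reps1 is an Eps15-related partner of the Ral pathway. Their log2 fold changes were between -0.052 for Eps15l1 and 0.025 for Fcho2, none kept 1 direction in all 3 pairs, and the adjusted p values of edgeR were 0.549 or more. All 6 were lowest in occasion 1, as were 21 of the 45 members and 28.5% of all genes. Eps15l1, Fcho2, Itsn2 and Reps1 (4 of 6, or 66.7%, beside 78% of all genes) differed between occasions. Itsn2 had the widest range of these, 0.43 on the log2 scale. Per kilobase, Itsn1 made up 18.4% to 22.5% of the summed intersectin level and Eps15 56.5% to 61.7% of that of Eps15 and Eps15l1.

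The cargo and lipid adaptors held the largest differences in either direction. Dab2, an endocytic adaptor that links cargo to AP2 and clathrin (chromosome 15, 6299788 to 6440712), was at 77.0, 95.7 and 75.3 CPM in acLDL-low and 84.5, 96.1 and 89.0 CPM in acLDL-high cells. The high library was above its partner in all pairs, by 0.13, 0.0062 and 0.24, with pair 2 close to 0. The log2 fold change was 0.13 (SE 0.049, 95% interval 0.021 to 0.23), and with an adjusted p of 0.175 from edgeR it did not pass over all genes. Without replicate 2 it was 0.19 with an adjusted p of 0.0253, the one call of a member among the alternatives run. Without replicate 3 it was 0.072 (adjusted p = 0.632), and without replicate 1 it was 0.12 (adjusted p = 0.261). DESeq2 with the block gave 0.13 (adjusted p = 0.290). Over the 10 alternatives the adjusted p of Dab2 ran from 0.0253 to 1. Between occasions Dab2 was highest in replicate 2, by 0.24 (adjusted p = 0.00299).

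The epsins Epn1 and Epn2 bind phosphatidylinositol 4,5-bisphosphate and ubiquitinated cargo and bend the membrane. Epn1 (chromosome 7, 5080235 to 5098178) was at 141, 209 and 165 CPM in low and 141, 189.8 and 143 CPM in high cells, a log2 fold change of -0.11 (SE 0.046; edgeR adjusted p = 0.193), with pairs of 0.00085, -0.14 and -0.20. Epn2 (chromosome 11, 61517249 to 61579687) was at 104, 87.5 and 153 CPM against 115, 89.2 and 162 CPM, a log2 fold change of 0.084 (SE 0.042; adjusted p = 0.305), with pairs of 0.15, 0.029 and 0.074. Neither passed, and in each the occasions lay farther apart than the populations. They also ran opposite ways between occasions, since replicate 2 was the highest for Epn1 and the lowest for Epn2 in both populations. Per kilobase, Epn1 made up 73.3% ± 7.66 of the summed level of the pair in acLDL-low and 70.5% ± 8.85 in acLDL-high cells (SD, n = 3).

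Picalm, which sorts the SNARE proteins of the vesicle and senses curvature (chromosome 7, 90130213 to 90213465), was among the steadiest members, at 226, 241 and 226 CPM in low and 215, 230.2 and 239 CPM in high cells (log2 fold change -0.020, 95% interval -0.12 to 0.077, edgeR adjusted p = 0.857; range over occasions 0.097). Numb, an adaptor for Notch and integrins, had -0.0043, and Hip1 and Hip1r, which tie the coat to actin, had -0.047 and 0.070. The pairs of Hip1r ran from -0.12 in pair 3 to 0.25 in pair 1, and its exons share 918 bases with Vps37b on the other strand. The arrestins Arrb1 and Arrb2, adaptors for activated G protein-coupled receptors, had -0.056 and -0.079. Per kilobase, Arrb1 was the lowest of the 45 genes at 1.28 CPM and Arrb2 was at 8.38 CPM. Between occasions they too ran apart, with replicate 2 at -0.64 for Arrb1 and 0.32 for Arrb2 relative to the mean of the others. The SH3 adaptors Sh3kbp1 and Cd2ap, partners of Cbl and of endophilin, had 0.048 and 0.063, and Cd2ap was higher in 3 of 3 pairs (adjusted p = 0.454).

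Dynamin cuts the neck of the coated bud. Dnm2, the ubiquitous form (chromosome 9, 21424908 to 21507759), was at 247, 203 and 231 CPM in acLDL-low and 245, 207 and 219.7 CPM in acLDL-high cells, a log2 fold change of -0.018 (95% interval -0.11 to 0.072; edgeR adjusted p = 0.863). Dnm1, best known from the presynaptic terminal (chromosome 2, 32308471 to 32353338), was at 34.3, 9.06 and 41.0 CPM against 33.0, 8.84 and 40.5 CPM, a log2 fold change of -0.037 (95% interval -0.15 to 0.075; adjusted p = 0.756). Within each replicate the populations were nearly equal, while replicate 2 was far below the other replicates in both. The highest occasion was 4.55-fold above the lowest in mean CPM, a range of 2.18 on the log2 scale (edgeR adjusted p over occasions = 1.56e-10), the widest of the 45 genes. Dnm2 was also lowest in replicate 2, with a range of 0.26 (adjusted p = 0.00160). Dnm1 made up 12.4%, 4.33% and 15.3% of the summed dynamin level per kilobase in replicates 1, 2 and 3 of low cells and 12.1%, 4.15% and 15.8% in high cells.

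The curvature and actin proteins around the neck did not pass either. Snx9, a BAR-domain protein that recruits dynamin, was at 150.1, 178 and 149 CPM in low and 156, 179 and 166 CPM in high cells, above its partner in all 3 pairs (0.056, 0.011 and 0.15), with a log2 fold change of 0.073 (95% interval -0.020 to 0.17; edgeR adjusted p = 0.391). Its paralogue Snx18 had -0.0014, amphiphysin 2 (Bin1) 0.027, endophilin A2 (Sh3gl1) -0.051 and N-WASP (Wasl), the activator of branched actin, -0.014. All 7 genes of this group, dynamins included, differed between occasions (beside 78% of all genes and 80% of members), and Snx18 stood highest in replicate 1, with a range of 0.69.

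The lipid switch and uncoating genes lay closest to 0 as a group, with a median absolute log2 fold change of 0.013 beside 0.039 for all 45 and 0.073 for all genes tested. Arf6 activates the kinases Pip5k1a and Pip5k1c that make phosphatidylinositol 4,5-bisphosphate, the synaptojanins Synj1 and Synj2 remove it, and Gak, the ubiquitous auxilin, recruits Hsc70 to strip the clathrin. Their log2 fold changes were 0.044 for Arf6, -0.012 for Pip5k1a, -0.0071 for Pip5k1c, 0.012 for Synj1 and 0.014 for Gak. Synj2 was lower in 3 of 3 pairs at -0.085 (95% interval -0.18 to 0.012; edgeR adjusted p = 0.331). Between occasions the kinases ran opposite ways, since replicate 2 was 0.32 against the mean of the other occasions for Pip5k1a and -0.29 for Pip5k1c on the log2 scale (adjusted p = 5.06e-05 and 0.000157). Arf6 had the highest level per kilobase of the 45 genes, at 118 CPM.

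After uncoating, Hgs and the Stam proteins hold ubiquitinated cargo on early endosomes and Eea1 tethers the vesicles that fuse there. Stam was at 71.6, 107 and 83.6 CPM in acLDL-low and 66.3, 94.9 and 82.9 CPM in acLDL-high cells, lower in 3 of 3 pairs (-0.11, -0.17 and -0.012), with a log2 fold change of -0.098 (95% interval -0.19 to -0.00066; edgeR adjusted p = 0.255). Hgs was also lower in 3 of 3 pairs, at -0.068 (adjusted p = 0.405), and Stam2 had 0.043 with pairs of both signs. Eea1 (chromosome 10, 95940650 to 96045518) was at 117, 105 and 184 CPM in low and 116, 104 and 179.8 CPM in high cells. The populations were almost equal in every replicate (log2 fold change -0.019, 95% interval -0.11 to 0.067, adjusted p = 0.847), and replicate 3 was the highest in both, with a range over occasions of 0.81 (adjusted p = 2.87e-08). The Rab5 genes, whose products recruit Eea1, had -0.032 for Rab5a, -0.0071 for Rab5b and -0.018 for Rab5c.

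**Figure D4:**
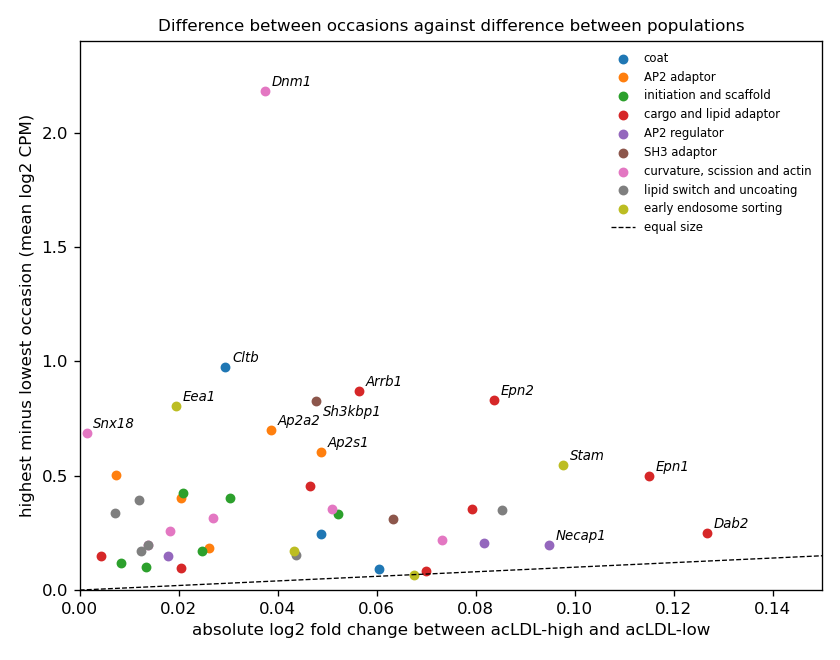
The absolute log2 fold change between populations on the horizontal axis against the range over the 3 occasions on the vertical axis, 1 point a gene, with a dashed line where the sizes are equal. All points except Hgs lie above the line, and Dnm1 stands apart at 2.18.

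Other genes of the pathway gave a similar picture. Of 46 further genes, 40 were tested and 1 passed (2.5% beside 4.75% of all genes). This was Gga3, an adaptor for ubiquitinated and Golgi cargo, at 56.8, 80.6 and 64.7 CPM in acLDL-low and 52.0, 68.9 and 58.1 CPM in acLDL-high cells. It was lower in 3 of 3 pairs, with a log2 fold change of -0.17 and an edgeR adjusted p of 0.0449, although the populations overlapped and it was not called without the block, without replicate 2, without replicate 3, with all genes of the count table or with DESeq2. The median of the list was -0.0087. Epn3, the epithelial epsin, was above its partner in all pairs with 0.36 (adjusted p = 0.0713) and did not pass. Hspa8, the Hsc70 chaperone of uncoating, had 0.013. Of 12 cargo receptors of clathrin-coated pits, 11 were tested and none passed (beside 4.75% of all genes). Among them, the transferrin receptor Tfrc was at 308, 349.9 and 263 CPM against 316, 350.0 and 270.0 CPM (log2 fold change 0.026, edgeR adjusted p = 0.793).

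In the same fit, 18 of 25 G2/M genes rose in acLDL-high cells (72%, beside 3.43% of all genes), with a median log2 fold change of 0.30. Their summed level ran from 4047 to 5052 CPM in low and 5026 to 6249 CPM in high libraries. No member's 95% interval reached that median, which comes from a list chosen with earlier results of these data known. Whether the cell cycle bears on the small differences of the members was not tested.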

How the data were processed

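Poly(A) RNA of the 6 sorted samples was sequenced paired-end from stranded libraries. Per the labels and the paper's methods, the authors aligned reads to mm10 with STAR (2.5.2a), counted them per gene with featureCounts (1.4.3-p1) and deposited raw counts for each library. The annotation release and strand setting are not given in the sources used here, so exons that overlap a gene of the other strand (in Ap2a1, Ap2a2, Ap2b1, Dab2, Dnm2, Hip1r, Itsn2 and Synj2, among others) carry that uncertainty. Hgs shares nearly all of its exons with a second ID in GENCODE M21, which is not in the count table. A table of the authors' own comparison (DESeq2 1.20.0) holds mean counts, fold changes and p-values, of which none were used. It gave only gene IDs and symbols.

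Genes of that table passing filterByExpr were tested with edgeR (4.0.16, R 4.3.3) by the quasi-likelihood method, with TMM scaling and the replicate number as a block, and p-values were adjusted by Benjamini-Hochberg over all 12572 genes, with a threshold of 0.05. The paper's methods include replicate information. Libraries of the same number deviated together (correlation across genes 0.795, 0.846 and 0.799; different numbers, -0.557 to -0.0882). Deviations were taken from the mean of each population, which by itself pushes the correlations between different numbers below 0. SE is the log2 fold change over the square root of F, and intervals use the fit's degrees of freedom. Pair differences are of log2 CPM (prior count 2). Occasions were tested in the same fit. A count of 3 is 0.0318 to 0.0427 CPM in these libraries, a floor for counting error alone. Positions and exon lengths are from GENCODE M21 (GRCm38). The fit was also run on simulated data, with planted changes larger than that of any member. The simulation therefore does not bear on differences of the members' size. Alternatives were no block, DESeq2's size factors, DESeq2 (1.42.0) with and, added after seeing the data, without the block, other filters, all genes, and leaving out each replicate. The members and lists were chosen with earlier results of these data known. Values in every library were given for the clathrin chains, AP2, dynamins, Dab2, Picalm, Eea1 and the 3 members of largest change in each direction, and other members by log2 fold change, range or count. From the other lists, genes that passed and the 3 of largest change could be named. Epn3, Hspa8, Tfrc and the Rab5 genes were named for their roles, and Flt1 and Pdgfra for their levels, after their values were seen.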

Additional observations from a re-analysis of the deposited data

How the results depend on the processing

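Leaving out the replicate block moved the comparison most. Without it 0 of 12329 genes were called by edgeR (45 at an unadjusted p under 0.05), 0 by DESeq2 (71), and 0 members and 0 of the other pathway genes. With the block, the genes called numbered 663 with DESeq2's size factors, 505 with DESeq2, 932 without the low-count filter, 584 with at least 10 counts in every library and 666 with all genes of the table. Leaving out a replicate gave 126 (without replicate 3) to 869 (without replicate 2), with 0 to 1 members called, Dab2 without replicate 2. Of the other pathway genes, 2 were called without the filter (Epn3 and Gga3), 0 with DESeq2 and the block, 0 with all genes, 0 with DESeq2 and no block, and 0 to 2 leaving out a replicate. The members' median log2 fold change ran from -0.025 to 0.0060 leaving out a replicate, and single members from -0.17 to 0.19 over the 10 alternatives. The sign held in all of them for 29 of 45, Dab2, Epn1 and Stam among them. Members differing between occasions numbered 36 or 37 with DESeq2's size factors, with either other filter and with all genes of the table. The cause of these shifts was not tested.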

Other observations

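The balance of paralogues within the machinery was compared between the populations after the values were seen. Of 13 pairs of paralogues, 3 shifted the same way in all 3 replicates. No share over other gene pairs was computed. Among single genes, 40.4% kept the same direction in all 3 replicates, so the count of 3 is not read as a result. The log2 ratio of Epn1 to Epn2 changed by -0.15, -0.17 and -0.28 from low to high cells in replicates 1, 2 and 3 (mean -0.20 ± 0.069, SD, n = 3; exact two-sided sign-flip permutation p = 0.25). That of Stam to Stam2 changed by -0.087, -0.20 and -0.13, and that of Synj1 to Synj2 by 0.073, 0.033 and 0.18, with the same p. With 3 pairs 0.25 is the smallest p this test can give, so none of these shifts could pass, and for the 13 pairs of paralogues the largest mean change was that of the epsins.

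Occasion 3 stood highest for Epn2, Sh3kbp1 and Arrb1, with ranges over occasions of 0.83, 0.83 and 0.87 on the log2 scale, and occasion 2 for Stam, with 0.55.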
